A study of Mus musculus with 99 samples.

Results

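Fatty acid elongases and desaturases were followed in single hair cells of the mouse cochlea. The members were 10 of the 55291 gene symbols of the count table, chosen by name: the elongases Elovl1, Elovl2, Elovl4, Elovl5, Elovl6 and Elovl7, and the desaturases Fads1, Fads2, Fads3 and Scd2. Elovl2 was chosen because its reads were nearly absent from one of the groups compared, so its ratio between the groups is given as a description. The other members were taken with it as its family, with their values known.

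Full-length cDNA was sequenced from 99 hand-picked cells of C57BL/6 mice. The first group held 32 outer hair cells (OHCs), the cochlea's mechanical amplifiers, at postnatal day 30, of genotype Slc26a5-CreER/+; Ai9/+. The second held 67 cells at postnatal day 42, of genotype Slc26a5-CreER/+; Rosa26Tbx2/+. These are OHCs in which the transcription factor Tbx2 is expressed ectopically, and the labels call them converted inner hair cells (cIHCs). Inner hair cells are the cells that signal to the auditory nerve. Both groups carry the inducible Cre driven from the Slc26a5 locus, which encodes the OHC motor protein prestin, and both were picked by tdTomato fluorescence. The Ai9 reporter is in the genotype label of the OHCs only. Age and genotype differ together between the groups, and so do the shares of cells with Y-linked or Xist reads, given below. No endogenous inner hair cell was analysed here. Because no label says which animal a cell came from, a group was taken as 1 sample, and differences between the groups were not tested.

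The endoplasmic reticulum lengthens fatty acids in a cycle whose first, rate-setting step is carried out by an ELOVL condensing enzyme. Desaturases add double bonds. Elovl5 and Elovl2 act in turn, alternating with the front-end desaturases Fads2 and Fads1, to make long polyunsaturated fatty acids, and Elovl2 is known for the late steps toward docosahexaenoic acid, a major acyl chain of retinal and brain membranes. Elovl4 makes the very long chains of photoreceptors, brain and skin. Elovl1, Elovl6 and Elovl7 act mainly on saturated and monounsaturated chains. Scd2 makes monounsaturated fatty acids, and Fads3 introduces a double bond into sphingoid bases. In human blood, methylation of the CpG-rich start of ELOVL2 is widely used to estimate age.

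The sequence before the Elovl2 start is shown first, because Elovl2 was the most abundant member per length in OHCs and the one nearly without reads in cIHCs. The same stretch of Fads2, the next most abundant member in OHCs, which had more reads in cIHCs, is shown for comparison. Both are the 250 bases before the annotated start on the gene's own strand, 5′ to 3′, from RefSeq on GRCm38.p6. Capitals mark the GC box GGGCGG on either strand. The Elovl2 stretch is chr13:41220404-41220653, minus strand, and the Fads2 stretch is chr19:10101504-10101753, minus strand.
Elovl2: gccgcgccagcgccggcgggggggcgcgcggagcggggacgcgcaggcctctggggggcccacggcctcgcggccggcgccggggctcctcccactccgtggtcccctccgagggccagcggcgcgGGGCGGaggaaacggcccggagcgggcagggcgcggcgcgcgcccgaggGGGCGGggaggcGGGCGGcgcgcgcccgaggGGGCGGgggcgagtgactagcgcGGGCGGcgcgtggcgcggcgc
Fads2: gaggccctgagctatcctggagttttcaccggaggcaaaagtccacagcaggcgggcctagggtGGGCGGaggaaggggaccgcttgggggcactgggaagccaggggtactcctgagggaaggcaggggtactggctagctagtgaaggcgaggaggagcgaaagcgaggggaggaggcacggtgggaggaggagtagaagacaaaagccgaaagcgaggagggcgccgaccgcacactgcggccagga

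G and C made up 87.2% of the Elovl2 stretch, above 99.96% of the 32851 promoter windows of this length in the table, whose median was 52.4%. It held 49 CpG dinucleotides, against a median of 6. The Fads2 stretch had 64.8% G and C and 14 CpG dinucleotides. The table held 8 of the 10 members in 10 windows, with none for Fads1 and Scd2. The other Elovl2 window, at an alternative start, had 79.6% G and C. The GC box was found 5 times in the Elovl2 stretch and once in that of Fads2, and 32.7% of all windows held 1 or more. The T-box motif TCACACC was searched because Tbx2 is a T-box factor, and the sterol regulatory element because it serves many lipid genes. On both strands, neither was found in any of the 10 windows of the 8 members, and 3.33% and 0.0731% of all windows held them. Fads1 and Scd2 could not be searched. The E-box CACGTG was found in the Elovl5 window and in 6.02% of all windows. The CCAAT box, on either strand, was found in windows of Elovl1, Elovl5 and Fads3 and in 33.8% of all windows. None of these motifs contains another, and a match describes the sequence only.

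The libraries held 5656512 to 9287413 counts each for OHCs and 4677682 to 13792672 for cIHCs. A median of 6068.5 genes had reads in an OHC and 8546 in a cIHC. The 9 OHC marker genes had a summed pooled level of 55563 CPM (read counts scaled to a fixed library total) in OHCs and 1031 CPM in cIHCs. Ocm alone gave 44926 CPM of the OHC sum, and each of the 9 was lower in cIHCs. Sri and Strip2 still had reads in all 67 cIHCs. The 10 inner hair cell marker genes summed to 2560 CPM and 12802 CPM. Both lists thus followed the labels, although no OHC marker was at 0 in cIHCs. Tbx2 had 3 counts in all OHCs together and reads in all 67 cIHCs. Markers of other cells were low. For 10 supporting cell genes the sum was 57.2 CPM among OHCs against 21.02 CPM among cIHCs, for 5 genes of glia it was 14.3 against 8.19 CPM, and for 8 genes of blood and macrophages 3.28 against 52.8 CPM. Per cell these sums ran from 0 to 1537, 174 and 67.0 CPM in OHCs and from 0 to 572, 119 and 337 CPM in cIHCs. In OHCs, Lfng and Slc1a3, C1qa and C1qb were at 0, and in cIHCs Epyc, Prox1 and Fabp7, Pmp22, C1qa, C1qc, Tyrobp and Lyz2. C1qb alone gave 48.2 of the 52.8 CPM of the blood and macrophage sum in cIHCs, with reads in 35 of 67 cells. Summed over the 3 lists, called foreign markers below, 7 OHCs and 21 cIHCs had 100 CPM or more. Neither the source of these reads nor the part of those cells in the members' values was tested. Without those cells the log2 ratio of Elovl2, defined below as cIHC over OHC, was -15.34, that of Elovl4 1.33, of Fads1 2.37, of Fads2 2.02 and of Scd2 3.20. Those of Elovl5, Elovl6, Elovl7 and Fads3 were 9.09, 10.499, 6.53 and 8.17, the last 3 as bounds. These had the directions found in all cells. At 10 CPM or more, 24 OHCs and 12 cIHCs had reads of Y-linked genes, and 4 OHCs and 55 cIHCs had Xist reads.

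Elovl2 reads were present in most OHCs and nearly absent from cIHCs. Its level in the 32 OHCs ran from 0 to 528 CPM with a median of 87.0 CPM, and in the 67 cIHCs from 0 to 0.0725 CPM with a median of 0. Reads were found in 27 of 32 OHCs, or 84.4% (exact Clopper-Pearson 95% interval 67.2 to 94.7), and 15 OHCs had 100 CPM or more. A single cIHC held a single read, which gives 1.49% of cells (0.0378 to 8.04). All 27 OHCs with reads were above the highest cIHC, while the other OHCs were at 0 like nearly all cIHCs.

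The pooled level, counts summed over the cells of a group and divided by their summed totals, was 123 CPM (exact Poisson 95% interval 121 to 124) in OHCs, from 29681 counts. In cIHCs it was 0.00184 CPM (0.0000465 to 0.0102), from 1 count in 544012348. The log2 ratio of cIHC over OHC was -16.03 (exact conditional 95% interval -21.33 to -13.55). The Poisson and conditional intervals are for counting error alone and leave out the spread between cells. The Clopper-Pearson intervals take cells as independent draws, although the cells of a group share an unknown number of animals. Reads copied by PCR and carrying no molecular identifier do not count molecules one by one, and differences between animals lie outside the intervals. No OHC held more than 13.0% of the OHC counts. Elovl2 lies at chr13:41182381-41220405 on the minus strand in GENCODE M21. No other annotated gene shares its exons, and none of its 3916 stretches of 50 bases occurs in a transcript of another gene.

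The read of Elovl2 came from cIHC 51, which had 709 CPM of Tbx2, 29.7 CPM of the OHC gene Ocm (oncomodulin) and no read of Slc26a5. Of the 51 cIHCs that still had Ocm reads, that cell was the only one with an Elovl2 read, and none of the 7 cIHCs with Slc26a5 reads had any.

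Within OHCs the level of Elovl2 varied widely. The coefficient of variation over the 32 cells was 1.11, below that of Fads2 at 1.64, Elovl4 at 2.00 and Scd2 at 1.40. The middle 50% of the cells lay between 14.7 and 161 CPM. The 4 OHCs with Xist reads had a pooled Elovl2 level of 241 CPM, with cells from 0 to 528 CPM, and the 24 with Y-linked reads had 101 CPM, with cells from 0 to 282 CPM. No cIHC with Y-linked reads had an Elovl2 read, and the 1 read came from the cells with Xist reads.

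**Figure D1:**
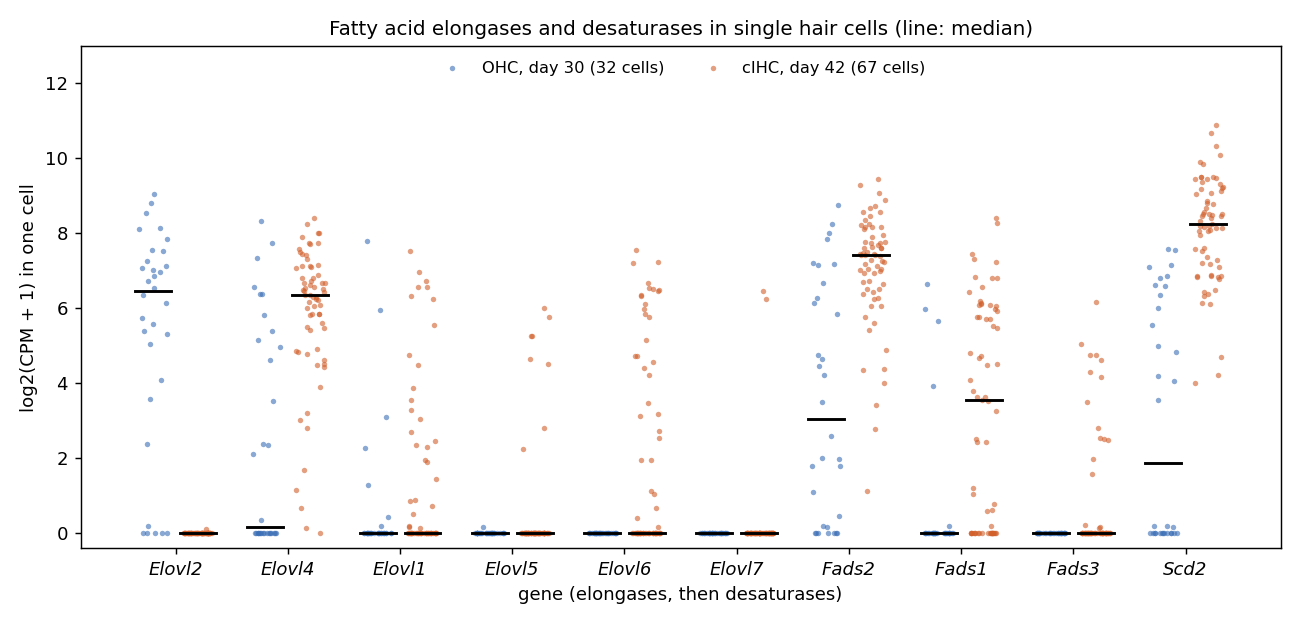
Level of each member in each cell as log2(CPM + 1), OHCs in blue (32 cells) and cIHCs in orange (67 cells), with a line at the median of the group. Elovl2 is spread up to 528 CPM in OHCs and lies at or near 0 in cIHCs, while Elovl4, Fads2 and Scd2 have higher medians in cIHCs.

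Elovl5, the other elongase of the polyunsaturated route, was at or near 0 in most cells of both groups. It had 1 count in all OHCs and ran from 0 to 63.8 CPM in cIHCs, with reads in 8 of 67 cells, or 11.9% (5.30 to 22.2). The pooled level in cIHCs was 3.92 CPM, and the log2 ratio was 9.89 (7.41 to 15.19). The 8 cIHCs were the only ones above the OHC with a read.

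Elovl4 differed in the other direction from Elovl2. It ran from 0 to 322 CPM in OHCs with a median of 0.137 CPM, and from 0 to 342 CPM in cIHCs with a median of 80.7 CPM. Reads were in 16 of 32 OHCs and 66 of 67 cIHCs. Pooled, Elovl4 reached 39.5 CPM (38.7 to 40.3) among OHCs against 98.5 CPM (97.6 to 99.3) among cIHCs, which is a log2 ratio of 1.32 (1.29 to 1.35). The groups overlapped: the cIHC had the higher level in 80.4% of the 2144 pairs of 1 cIHC and 1 OHC, and 1 cIHC lay above the highest OHC. OHC 25 alone gave 30.5% of the counts of its group. In cells with Y-linked reads the ratio was 0.97, and all 12 such cIHCs had Elovl4 reads against 11 of 24 OHCs.

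The elongases of saturated and monounsaturated chains differed among themselves. Elovl6, which lengthens palmitate, had no read in any OHC, for which the limit of 3 cells in 32 is 9.38% of cells with reads and the exact Clopper-Pearson upper bound 10.9%. Among cIHCs it ran from 0 to 187 CPM, with reads in 32 of 67 cells, or 47.8% (35.4 to 60.3), and a pooled level of 21.8 CPM. With 3 counts over all OHCs as the floor, its log2 ratio was at least 10.78. Transcripts of Elovl6 share 3.98% of their stretches of 50 bases with other genes, mostly Gm11295, so a small part of its reads could be exchanged. Elovl7 had no OHC read either and came from 2 cIHCs, at 74.97 and 86.7 CPM. Its pooled level of 2.19 CPM was at least 7.47 higher on the log2 scale than the floor, or 6.28 without cIHC 29, which held 56.6% of the counts.

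Elovl1, which makes very long saturated chains, had reads in a minority of the cells of each group. It ran from 0 to 222 CPM in OHCs and from 0 to 184 CPM in cIHCs, with medians of 0, and 7 of 32 OHCs and 28 of 67 cIHCs had reads. Pooled levels were 8.87 and 13.0 CPM, a log2 ratio of 0.55 (0.48 to 0.62). That value rested on OHC 30, which held 77.8% of the OHC counts: without it the OHC level was 2.03 CPM and the ratio 2.68. In cells with Y-linked reads the direction turned, to -3.38. In cells with under 100 CPM of foreign markers the ratio was 4.44.

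All 4 member desaturases had higher pooled levels in cIHCs, beside 14738 of the 23306 genes with a ratio. Of the elongases and desaturases that are no members, 4 were higher and 1, Fads6, was lower. Fads2, the desaturase that begins the polyunsaturated route, ran from 0 to 428 CPM in OHCs with a median of 7.66 CPM, and from 1.20 to 705 CPM in cIHCs with a median of 169 CPM. Reads were in 25 of 32 OHCs and in all 67 cIHCs. Pooled, Fads2 reached 62.7 CPM (61.7 to 63.7) among OHCs against 198 CPM (197 to 199) among cIHCs, giving a log2 ratio of 1.66 (1.63 to 1.68). The cIHC was higher in 81.9% of pairs, and 4 cIHCs lay above the highest OHC. In the cells with Xist reads, where 4 OHCs had 176 CPM and 55 cIHCs 201 CPM, the ratio was 0.19.

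Fads1, which acts after Fads2 in that route, was seen in 5 of 32 OHCs, from 0 to 100.0 CPM, and in 45 of 67 cIHCs, from 0 to 336 CPM with a median of 10.8 CPM. Pooled levels were 7.20 and 43.8 CPM, a log2 ratio of 2.60 (2.53 to 2.67). OHC 9 held 48.3% of the OHC counts, and without it the ratio was 3.51. In cells with Y-linked reads the ratio was 0.87, and in those with Xist reads, where the OHCs held 1 count, 10.45. Of the 35 cIHCs with at least 10 CPM of Fads1, all had at least 10 CPM of Fads2 too, which 64 of 67 cIHCs reached. Fads3 had no read in OHCs and ran from 0 to 71.0 CPM in cIHCs, with reads in 17 of 67 cells, or 25.4% (15.5 to 37.5). Its log2 ratio was at least 8.13.

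Scd2 was the member with the highest level in cIHCs. It ran from 0 to 189 CPM in OHCs with a median of 5.41 CPM, and from 15.1 to 1886 CPM in cIHCs with a median of 301 CPM. Of the 67 cIHCs, 45 lay above the highest OHC, and every cIHC had at least 10 CPM against 16 of 32 OHCs. Its pooled level came to 43.1 CPM (42.3 to 43.9) among OHCs against 419 CPM (418 to 421) among cIHCs, giving a log2 ratio of 3.28 (3.25 to 3.31). Scd1, its close relative and no member, had 35.4 and 486 CPM, with reads in 14 OHCs and all cIHCs and a log2 ratio of 3.78. Transcripts of Scd2 share 3.97% of their stretches of 50 bases with other genes, mostly Scd1, so a small part of their reads could be exchanged.

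Counted over the members, 9 of 10 had a higher pooled level in cIHCs and Elovl2 a lower one. Among all genes with a ratio, 14738 of 23306 were higher. Of the 10041 genes that reached 10 CPM in either group, 26.3% were at least 2-fold higher and 14.3% at least 2-fold lower in cIHCs, so that 40.5% were apart in either direction, and their median log2 ratio was 0.25. Among the members 7 reached that level, 5 of them at least 2-fold higher (Elovl4, Elovl6, Fads1, Fads2 and Scd2), 1 lower (Elovl2) and 1 between (Elovl1). Elovl6, Elovl1 and Fads1 reached 10 CPM in cIHCs only, and Elovl5, Elovl7 and Fads3 in neither group. The median log2 ratio over all 10 members was 2.94, with the 3 members without OHC reads at their bounds. Relative to the median of all genes, Elovl4 stood at 1.07, Fads2 at 1.41, Fads1 at 2.35 and Scd2 at 3.03. Since the members were chosen with this contrast known, their shares are not support for a property of the family. A cell had reads of a median of 3 members in OHCs (range 1 to 5) and 5 in cIHCs (range 3 to 7). Over all genes the number with reads was also higher, with a median of 6068.5 in an OHC and 8546 in a cIHC.

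**Figure D2:**
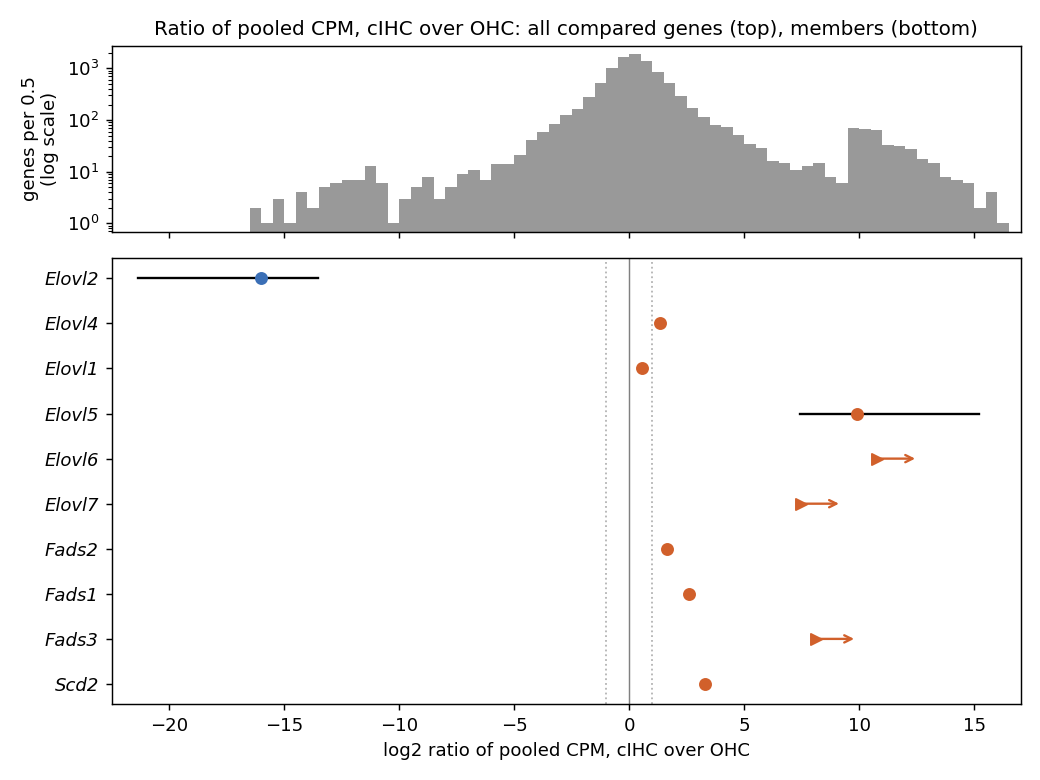
Log2 ratio of pooled CPM, cIHC over OHC. Top, all 10041 compared genes (log count axis); bottom, members with exact 95% intervals for counting error, triangles with arrows for lower bounds and dotted lines at 2-fold. Elovl2 lies alone on the left at -16.03, and the other members lie right of 0.

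Per length, a different elongase led in each group, while the sums over the elongases were close. In OHCs, Elovl2 had a pooled level of 30.9 CPM per kilobase of exon and made up 65.5% of the sum over the 6 elongases, with Elovl4 at 27.6% and Elovl1 at 6.89%. In cIHCs, Elovl4 had 32.5 CPM per kilobase and made up 76.8%, followed by Elovl1 at 11.3% and Elovl6 at 7.99%. The sum was 47.2 CPM per kilobase in OHCs and 42.4 CPM per kilobase in cIHCs. Both are scaled by library totals, and no other scaling was tried for them. The 4 desaturases summed to 28.4 and 147 CPM per kilobase. Fads2 made up 67.0% of that sum in OHCs and 40.9% in cIHCs, and Scd2 27.8% and 52.3%.

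The order of the members per kilobase in OHCs was Elovl2, Fads2, Elovl4, Scd2, Elovl1 and Fads1, with the rest at or near 0. Neighbours overlapped widely between cells. Elovl2 was above Fads2 in 20 of 32 OHCs and below it in 11, and Fads2 was above Elovl4 in 18 and below it in 9. Elovl4 was below Scd2 in 15 cells and above it in 9, against the order of the pooled levels. In cIHCs the order was Scd2 at 76.8, Fads2 at 60.003, Elovl4 at 32.5, Fads1 at 9.10, Elovl1 at 4.77 and Elovl6 at 3.38 CPM per kilobase, with Elovl2 last. Scd2 was above Fads2 in 36 of 67 cIHCs and below it in 31, so the order of these neighbours varied from cell to cell. Fads2 was above Elovl4 in 50 cells and Elovl4 above Fads1 in 53.

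**Figure D3:**
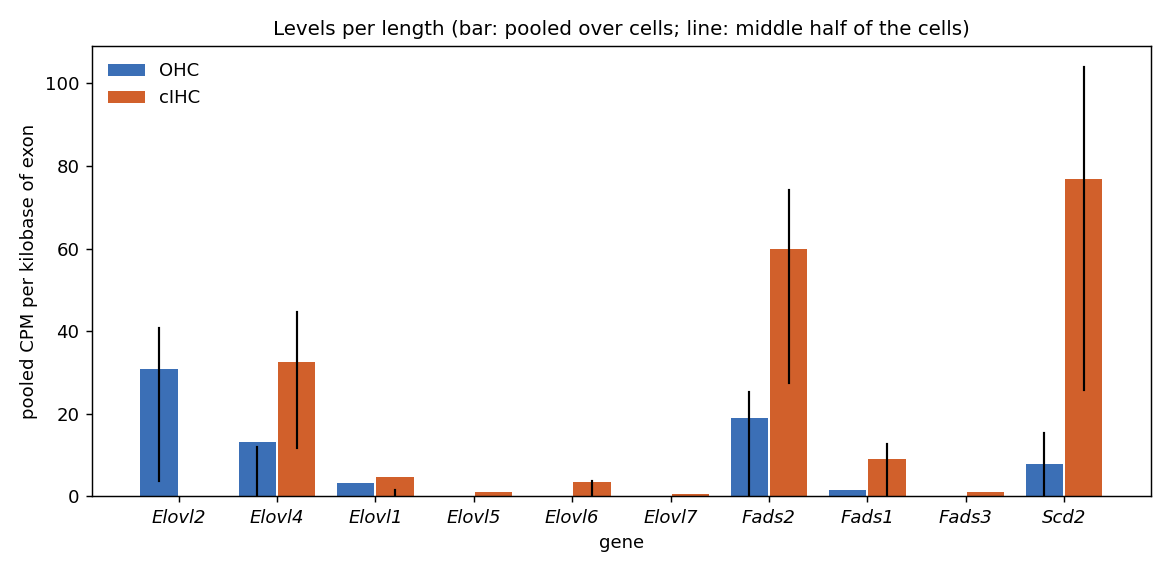
Pooled CPM per kilobase of exon for each member, OHCs in blue and cIHCs in orange; the black line spans the middle 50% of the cells. Elovl2 leads in OHCs at 30.9 and has no visible bar in cIHCs, where Elovl4 reaches 32.5, Fads2 60.003 and Scd2 76.8.

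Correlations between members were weak within OHCs. Elovl2 had a Pearson correlation of log2(CPM + 1) of 0.06 with Elovl4, -0.16 with Scd2 and -0.28 with Fads2 over the 32 OHCs, which share libraries of like depth and an unknown number of animals. At 10 CPM or more, 11 OHCs had both Elovl2 and Fads2, 14 had Elovl2 alone, 5 had Fads2 alone and 2 had neither. Elovl2 and Elovl4 were together in 10 OHCs, with Elovl2 alone in 15 and Elovl4 alone in 2. Over the 67 cIHCs the highest values among Elovl4, Fads1, Fads2 and Scd2 were 0.42 for Fads1 with Scd2 and 0.29 for Fads2 with Scd2. These are descriptions of sparse counts.

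Over all cells, the genes whose levels were most like those of Elovl2 had levels in cIHCs at or near 0 as well. Among 4675 genes in the 99 cells, the 5 highest Pearson correlations of log2(CPM + 1) were those of C1ql1 at 0.87, 4930558C23Rik at 0.83, Slc26a5 at 0.82, Meikin at 0.81 and Lbh at 0.81. These values mostly restate the difference between the groups. Over the 32 OHCs alone and 4694 genes, the highest were Zmat2 at 0.68, Fkbp4 at 0.63, Akr1a1 at 0.61, Tmem107 at 0.60 and Osbpl11 at 0.59, and 1 of these 5 was also among the 5 highest by Spearman correlation. The second list shares no gene with the first.

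Other genes of the pathway were counted from lists of 47 genes, of which 39 had 10 CPM or more in 1 or both groups. Of these, 16 were at least 2-fold higher in cIHCs, 5 at least 2-fold lower and 18 between, against 26.3% and 14.3% of all compared genes, and their median log2 ratio was 0.67. With a TMM scaling factor 12 of 38 were higher and 5 lower, beside 2175 and 1800 of 10025 compared genes.

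Among the 6 other elongases and desaturases, Elovl3 had no read in any cell. Fads6, a front-end desaturase relative, was lower in cIHCs, as was Elovl2: its pooled levels were 59.2 and 17.3 CPM, for a log2 ratio of -1.78. Degs1, the desaturase that completes ceramide, had 32.7 and 117 CPM, a ratio of 1.84. Scd3 was within 2-fold, at 11.5 and 21.1 CPM.

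The partners of the elongation cycle had reads in both groups apart from Hacd4. Hacd3, a dehydratase of the cycle, ran from 0 to 781 CPM in OHCs and from 116 to 1241 CPM in cIHCs, with pooled levels of 266 and 621 CPM. Tecr, the reductase of the last step, had 665 and 749 CPM, and Hsd17b12, the reductase of the second step, 40.2 and 58.9 CPM. Of the 5 compared partners 3 were at least 2-fold higher (Hacd1, Hacd2 and Hacd3) and 0 lower, beside 26.3% and 14.3% of all compared genes, and with TMM 1 was higher. Hacd1 had 49.98 and 107 CPM, and Hacd2 16.9 and 35.1 CPM. The small ratio of Tecr, 0.17, turned to -0.02 with TMM. The electron donors of desaturases gave ratios of 0.78 for Cyb5a, 0.17 for Cyb5b and 1.21 for Cyb5r3. Of these, Cyb5b turned to -0.02 with TMM, and Cyb5r3 was 1.94 without OHC 12, which held 41.3% of its OHC counts.

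Of 8 genes of fatty acid synthesis and its regulators, 3 were at least 2-fold higher in cIHCs and 0 lower, beside 26.3% and 14.3% of all compared genes. Srebf1, the transcription factor of fatty acid synthesis genes, ran from 0 to 223 CPM in OHCs and from 6.25 to 512 CPM in cIHCs, with pooled levels of 31.2 and 196 CPM and a ratio of 2.65. In 24 cIHCs it lay above the highest OHC. Insig1, which retains the SREBP complex in the endoplasmic reticulum, had 0.463 and 32.95 CPM and a ratio of 6.15, or 6.99 without OHC 5. Acaca, the first committed enzyme of fatty acid synthesis, had 6.94 and 38.5 CPM, a ratio of 2.47, or 3.06 without OHC 16 and 3.40 in cells with under 100 CPM of foreign markers. Fasn, Acly, Srebf2, Scap and Insig2 were within 2-fold over all cells, with ratios from -0.79 to 0.67. In cells with Y-linked reads Scap was at -1.56, Srebf2 at -1.04 and Insig2 at 1.20. With Xist reads Scap was at -2.16 and Acly at 2.05.

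Acyl-CoA synthetases, which activate fatty acids, went in different directions. Acsl1 was lower in cIHCs: it ran from 102 to 967 CPM in OHCs and from 0 to 293 CPM in cIHCs, with pooled levels of 415 and 87.0 CPM and a ratio of -2.25, and 9.91% of its exon bases overlap Gm45244 on the other strand. The cIHC was higher in 4.01% of pairs. Acsl3 had 159 and 416 CPM, a ratio of 1.39, and Acsl4, which prefers arachidonate, 220.4 and 307 CPM. Acsl5 had reads in 2 OHCs, 9 counts in all, and in 16 cIHCs, at a pooled 10.2 CPM. Its ratio of 8.10 was 11.23 without OHC 10 and 10.66 in cells with under 100 CPM of foreign markers.

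Carriers and acyltransferases were mixed too. Fabp3, a cytosolic fatty acid carrier, ran from 0 to 509 CPM in OHCs with a median of 177 CPM, and from 0 to 270 CPM in cIHCs with a median of 0. Its pooled levels were 202 and 20.8 CPM, a ratio of -3.28, and 9.84% of its exon bases overlap Zcchc17 on the other strand. Agpat3, an acyltransferase that takes docosahexaenoic acid, was within 2-fold, at 116 and 81.2 CPM. Fabp5 had 5.26 and 21.9 CPM, a ratio of 2.06, or 3.59 without OHC 25.

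Among ceramide synthases, which use the long chains, Cers1 had 93.8 and 20.7 CPM, a ratio of -2.18, but 42.5% of its exon bases are shared with Gdf1 on the same strand. Cers5 had 153 and 135 CPM. Cers6 had no read in OHCs and 12.5 CPM in cIHCs, from 21 cells, a ratio of at least 9.98. Cers4 had 0.062 and 12.4 CPM, with all OHC counts in 1 cell. Cers2 had 7.97 and 16.95 CPM, a ratio of 1.09, or 2.01 without OHC 10. With TMM it was 0.90, within 2-fold, and in cells with under 100 CPM of foreign markers 9.24. The bound of Cers6 was 9.37 in those cells, and the ratio of Cers4 was 6.83 there against 7.65 in all cells.

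**Figure D4:**
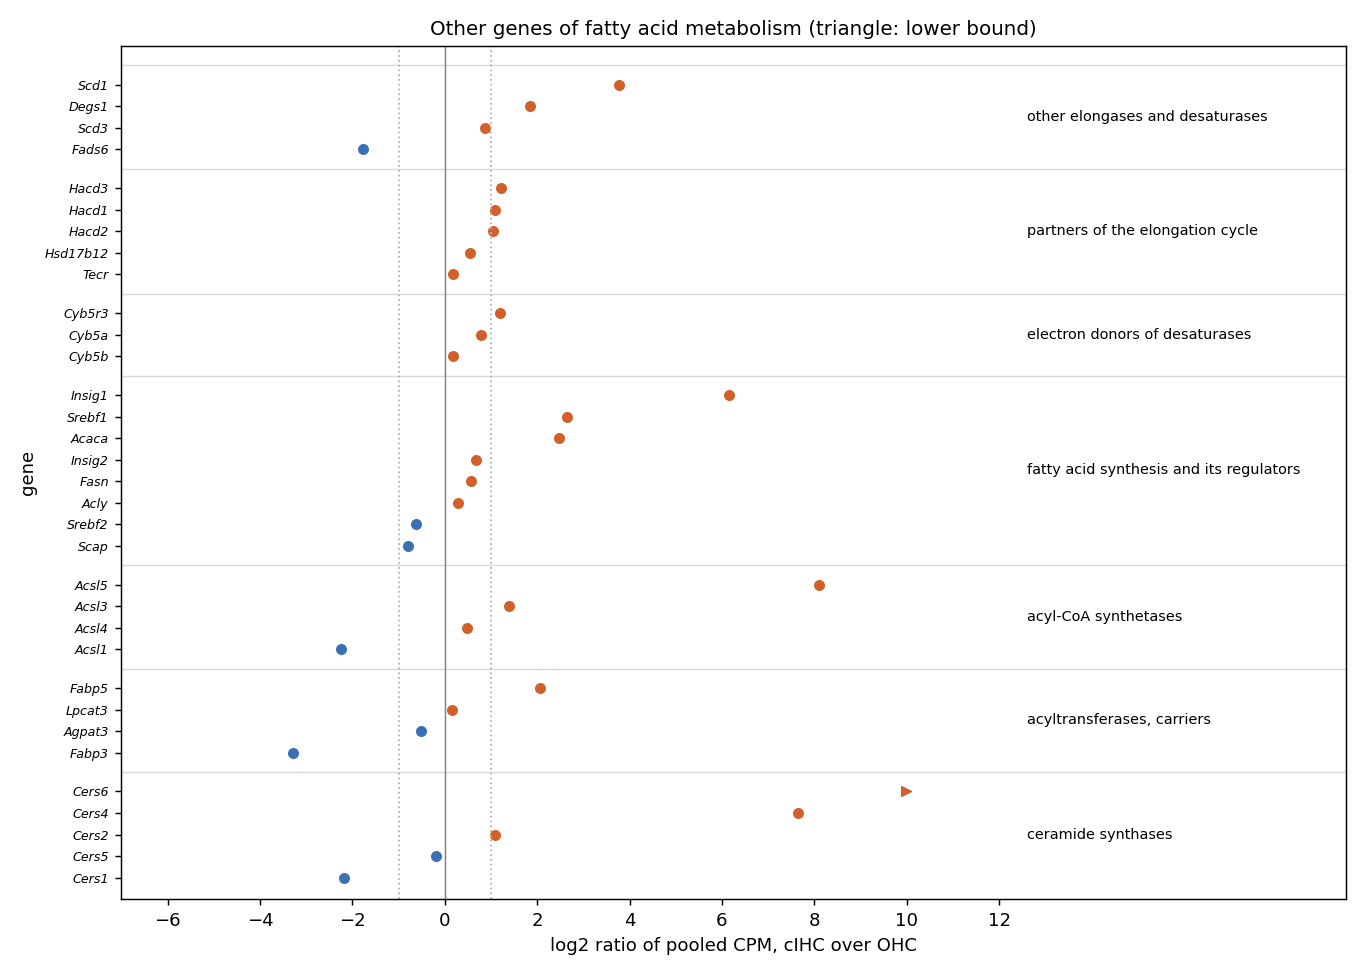
Log2 ratio of pooled CPM, cIHC over OHC, for the compared genes of 7 lists of fatty acid metabolism; dotted lines mark 2-fold and the triangle a lower bound. Srebf1, Insig1 and Scd1 lie to the right, and Acsl1, Fabp3 and Fads6 to the left.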

How the data were processed

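The authors deposited 1 table of whole-number read counts with 55291 gene symbols and 99 cells, mapped to cells by title; that the counts are not normalised was judged from the values. HISAT2 2.2.1, StringTie 2.2.1, featureCounts 2.0.1 and mm10 are named, without role or order, per the submitters' processing notes; the annotation and the strand setting are not given in the sources used here. The table had 0 columns of no sample and 0 pairs of identical cells. All 99 cells were used, and doublets were not searched for in these hand-picked cells.

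Cells were summed to 1 sample per group: with no animal named, no test, p-value or SD between samples was computed. Pooled CPM, log2 ratios, exact Poisson, conditional binomial and Clopper-Pearson intervals (95%) and a floor of 3 counts were computed with Python 3.11.15 and scipy 1.17.1, and TMM factors with edgeR 4.0.16. A gene was compared at 10 CPM or more in 1 or both groups, and called at 2-fold. Total counts per group were 242054710 and 544012348. Positions, exon lengths and overlaps came from GENCODE M21 (GRCm38, the assembly of mm10), which holds 96.4% of the symbols. Thinned cells held 5770000 reads each, which left 29 OHCs and 66 cIHCs.

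All members and the lists of other genes were chosen with earlier results of these data known. Genes most like Elovl2 were the 5 highest correlations among genes with a mean of 10 CPM and reads in at least 50% of OHCs. From the lists, genes past 2-fold, the most abundant and a few others were named; those within 2-fold, beyond the most abundant, were chosen after their values were seen. Genes of 1 of the 8 lists are counted in the totals but not reported here by name. The ratio steps were tested on simulated data. Alternatives were mean or median CPM per cell, no highest cell, TMM and median-of-ratios scaling, no mitochondrial genes, thinned cells, cells with Y-linked or Xist reads, a 1.5-fold threshold, a minimum of 1 CPM, the longest transcript as length and Spearman correlation.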

Additional observations from a re-analysis of the deposited data

How the results depend on the processing

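No paired analysis was possible because no result comes from a test and a cell's number in its title is only its name. Elovl2 was lower in cIHCs under each alternative that gave a value; from median CPM it had none, since the cIHC median is 0. Its ratio was at most -11.40 among cells with Y-linked reads, where no cIHC had a read and the floor sets the value. The median log2 ratio of the members, 2.94, was 2.88 from mean CPM, 5.80 from median CPM (3 members), 3.31 without the highest cells, 2.75 under TMM, 2.74 under median-of-ratios factors, 1.88 in the cells having Y-linked reads, 3.55 in those having Xist reads, and 3.82 in cells with under 100 CPM of foreign markers, an alternative chosen after seeing the data. Of 7 compared members 5 were at least 2-fold higher, beside 2638 of 10041 genes. From median CPM it was 3 of 3, beside 1834 of 4115. Among cells with Y-linked reads 3 of 6 were higher, beside 2847 of 9994, and with Xist reads 4 of 7, beside 4121 of 10124. Without the highest cells 6 of 7 were higher, beside 3255 of 9311. The same 6 of 7 count held under 100 CPM of foreign markers, beside 2631 of 9985. With a minimum of 1 CPM 8 of 10 were higher. The members this added, Elovl5, Elovl7 and Fads3, had 1 count or none over all OHCs. No share of all genes was computed at that minimum, so nothing is read from this count. The 1 lower member was 0 of 3 from median CPM, beside 394 of 4115. Elovl1 reversed to -3.38 among cells with Y-linked reads, where OHC 30 holds most OHC counts. TMM moved the median of all genes from 0.25 to 0.03 and the split of all genes from 2638 higher and 1432 lower to 2175 and 1800. Elovl2 stayed first per kilobase in OHCs with the longest transcript as length. Of the 5 genes most like Elovl2 over all cells, 3 were also the most alike by Spearman correlation. Thinning moved 1 of the members' shares of cells with reads beyond its interval, that of Elovl5 in OHCs, from 1 cell to 0. Counting only cells with at least 10 CPM moved 9 of these 20 shares, among them Fads2 in OHCs from 78.1% (25 cells) to 16 cells, Elovl1 in OHCs from 21.9% to 6.25% and Fads3 in cIHCs from 25.4% to 11.9%. The number of cells limits shares of 0: with no reads in 32 OHCs the exact upper bound is 10.9%.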
